A study of Bos taurus with 28 samples.

Results

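The genes described are 8 coregulators of nuclear receptors: the coactivators NCOA1, NCOA2, NCOA3, CREBBP, EP300 and MED1, and the corepressors NCOR1 and NRIP1. Their members were taken as every probe set of the Affymetrix Bovine GeneChip that carries one of these symbols, and only that symbol, in the annotation of the array. This gave 10 of the 24016 probe sets other than controls, and covered 3 of the 8 genes: 4 probe sets for NCOA1, 1 for CREBBP and 5 for NCOR1, called first, second and so on here by their mean signal within the gene, in the order of the plot panels that carry their array identifiers. No probe set carried the symbol NCOA2, NCOA3, EP300, MED1 or NRIP1, so these 5 genes were not analysed here. The samples were liver biopsies of dry, ovariectomized Holstein cows. The cows had 14 days of estradiol from an ear implant (E2T), 14 days of progesterone (P4T), 14 days of both hormones (E2P4T) or 14 days without hormone (CO), with 7 arrays per group. The route of progesterone is a vaginal device in the study's methods and intradermal in the source labels of P4T and E2P4T. All cows, CO included, lacked ovaries, so the treated groups were cows with hormone given back and not cows with an ovarian cycle. The methods describe a Latin square in which each cow passed through the treatments in turn, but the labels give neither cow nor period, and p-values therefore measure the spread between arrays that share cows.

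Steroid, thyroid, retinoid and lipid-sensing nuclear receptors bind DNA but need other proteins to change transcription. A receptor with an activating ligand exposes a surface for p160 coactivators such as NCOA1 (also called SRC-1), which bring in the histone acetyltransferases CREBBP and EP300, while MED1 links the receptor to the Mediator complex and RNA polymerase II. Receptors without ligand, or with an antagonist, can hold NCOR1, which carries the deacetylase HDAC3 and partners such as TBL1X, TBL1XR1 and GPS2; in mouse liver this complex takes part in the control of lipid metabolism.

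The deposited values are signal intensities, given here as log2 signals without further scaling, and a signal does not compare the amount of one transcript with that of another because each probe set has its own response. Of the 10 probe sets, 7 were among the 18732 with a maximum signal of at least 351.9 and were tested. The other 3, all of NCOR1, never reached that signal and were fitted only when all 24016 probe sets were kept. Hepatocyte markers (20 of 21 genes with a probe set, none at 0) averaged 14.78 to 15.72 on the log2 scale in 27 arrays. The array labelled E2P4T number 5 stood at 9.97 for this list, with ALB at 12.06 (16.57 to 18.16 in the others), and at 10.55 for kidney markers (10 of 16 genes; 4.78 to 7.88 in the others). The same array stood at 12.05 for bile duct markers (6.38 to 8.54 in the others). For leukocyte and Kupffer cell markers it stood at 8.04 (10.18 to 11.53 in the others). Among kidney genes, CDH16 stood at 14.42 (3.95 to 8.75 in the others) and SLC12A1 at 6.67 (2.00 to 8.25 in the others). Hepatocyte markers ran from 14.96 to 15.30 in E2T, from 14.85 to 15.44 in P4T, from 9.97 to 15.52 in E2P4T and from 15.17 to 15.72 in CO. The hybridization spikes averaged 18.44 in E2P4T number 5 and 17.49 in P4T number 4, against at most 16.45 in any other array. Results are therefore also given without these 2 arrays. The study set aside an array of P4T and an array of E2P4T as signal outliers before its analysis. The labels do not say whether those are among the arrays used here. In tissue RNA, fewer cells of a type and less RNA per cell cannot be told apart.

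NCOA1 signal showed no difference between treatments that exceeded the spread between arrays. At its first probe set, the one of highest mean, the lowest, median and highest log2 signals were 10.94, 11.08 and 11.27 in E2T. They were 10.99, 11.18 and 11.60 in P4T and 10.58, 11.30 and 11.47 in E2P4T, against 10.44, 11.34 and 11.60 in CO. Every treated array lay inside the range of the CO arrays. CO itself was split, with 5 arrays at 11.10 or above and 2 arrays, numbers 6 and 7, at 10.44 and 10.49. Means were 11.10 ± 0.12 in E2T, 11.26 ± 0.24 in P4T, 11.22 ± 0.32 in E2P4T and 11.13 ± 0.48 in CO (SD, n = 7 each). The differences from CO in limma were -0.03 for E2T, 0.13 for P4T and 0.09 for E2P4T, each with an SE of 0.18 (adjusted p = 0.987, 1.00 and 0.979), and the F test over the treatments had an adjusted p of 1.00.

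The other 3 probe sets of NCOA1 gave differences of similar size. The second held the largest difference of any tested member. It averaged 9.74 ± 0.42 in E2T, 9.86 ± 0.43 in P4T and 9.91 ± 0.32 in E2P4T, against 9.60 ± 0.43 in CO (SD, n = 7 each). Of the E2P4T arrays, 6 of 7 were above the CO mean, and the ranges overlapped (9.36 to 10.34 in E2P4T, 8.78 to 10.08 in CO). This difference of 0.31 ± 0.23 (SE) did not pass the test (adjusted p = 0.933 in limma). Those for E2T and P4T were 0.14 and 0.26 with the same SE. The third probe set averaged 8.87 ± 0.53 in E2T, 8.88 ± 0.36 in P4T, 9.12 ± 0.37 in E2P4T and 8.89 ± 0.36 in CO. Its highest signals were in the 2 arrays that stand apart, 9.69 in P4T number 4 and 9.88 in E2P4T number 5, both above the other 26 arrays (8.19 to 9.62). The fourth probe set averaged 8.71 ± 0.27 in E2T, 8.75 ± 0.27 in P4T, 8.80 ± 0.26 in E2P4T and 8.73 ± 0.49 in CO, the smallest span between group means among the members, 0.09.

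CREBBP, the acetyltransferase that p160 coactivators recruit, had the closest agreement between group means of the 3 genes at their probe sets of highest mean. Its single probe set averaged 11.73 ± 0.21 in E2T, 11.73 ± 0.22 in P4T, 11.64 ± 0.36 in E2P4T and 11.72 ± 0.57 in CO (SD, n = 7 each). The lowest, median and highest signals were 11.45, 11.70 and 12.14 in E2T and 11.36, 11.80 and 12.01 in P4T. They were 11.15, 11.74 and 12.15 in E2P4T, against 10.83, 11.69 and 12.40 in CO. Each treated range lay inside that of CO, whose arrays differed among themselves by more than those of any treatment. The lowest E2P4T signal was that of number 5, which also stands apart in its hepatocyte markers, and the E2P4T difference was -0.08 ± 0.20 (SE) with all arrays and 0.00 without the 2 arrays. The differences for E2T and P4T were 0.01 each (adjusted p = 0.993 and 1.00 in limma), and the F test also had an adjusted p of 1.00.

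**Figure D1:**
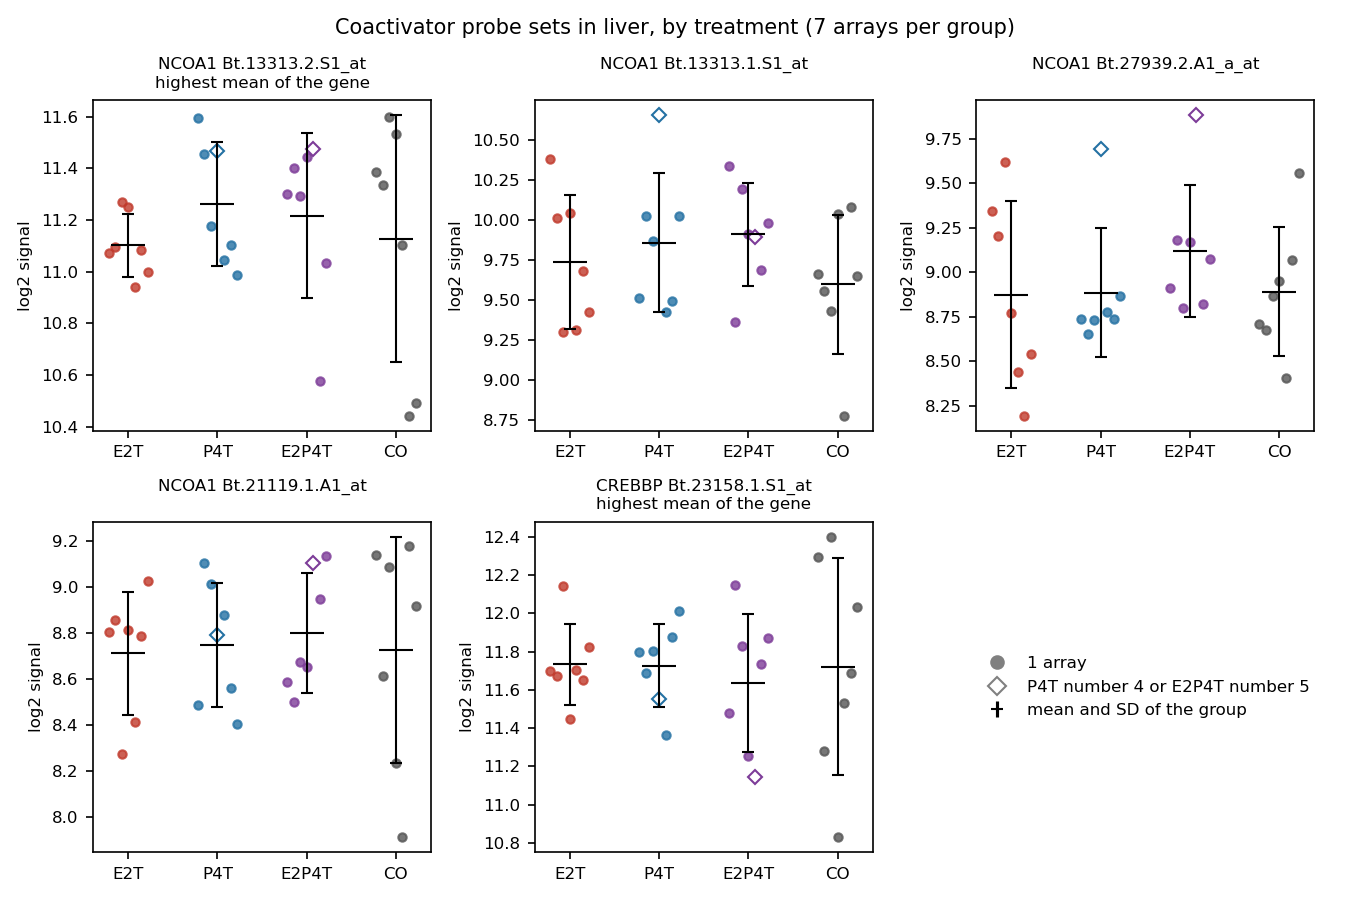
Log2 signals of the 4 NCOA1 probe sets and the CREBBP probe set (vertical axes) in E2T, P4T, E2P4T and CO; each point is 1 array, open diamonds are P4T number 4 and E2P4T number 5, and bars give the group mean and SD (n = 7). The treated points of the first NCOA1 probe set and of CREBBP fall within the CO range (10.44 to 11.60 and 10.83 to 12.40).

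NCOR1, the corepressor, likewise showed no difference that passed the test at its 2 tested probe sets. At the first, the one of highest mean, the lowest, median and highest signals were 9.64, 10.24 and 10.56 in E2T and 9.65, 10.41 and 10.75 in P4T. They were 9.60, 10.16 and 10.71 in E2P4T, against 10.06, 10.18 and 10.85 in CO. The groups overlapped, although 3 of 7 arrays in E2T, 3 of 7 in P4T and 2 of 7 in E2P4T lay below the lowest CO array. The differences from CO were -0.16 for E2T, -0.01 for P4T and -0.11 for E2P4T, each with an SE of 0.20 (adjusted p = 0.915, 1.00 and 0.977 in limma). Without the 2 arrays they were -0.16, -0.09 and -0.20. The second probe set had the opposite sign, with differences of 0.23, 0.20 and 0.27 and an SE of 0.40. It averaged 8.59 ± 0.63 in E2T, 8.56 ± 0.76 in P4T, 8.63 ± 0.74 in E2P4T and 8.36 ± 0.96 in CO (SD, n = 7 each), and its arrays spread from 7.10 to 10.10. Without the 2 arrays its differences were 0.23, -0.06 and 0.06.

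The 3 remaining probe sets of NCOR1 were dim, and in 2 of them the group means lay furthest apart of all members, in opposite directions, without passing the adjusted test. The fifth probe set, whose signal never exceeded 105.3, had log2 signals of 2.61, 4.65 and 6.72 (lowest, median and highest) in E2T. It had 2.98, 3.78 and 4.63 in P4T and 2.32, 3.79 and 4.52 in E2P4T, against 4.29, 5.37 and 6.54 in CO. All 7 arrays of P4T and all 7 of E2P4T were below the CO mean of 5.43, and 6 of 7 in each were below the lowest CO array, so that 1 array of each reached into the CO range. In E2T, 5 of 7 arrays were below the CO mean, and the range of E2T contained that of CO. With no filter, the limma differences were -0.84 for E2T, -1.68 for P4T and -1.84 for E2P4T, each with an SE of 0.63, and the last 2 had an unadjusted p under 0.05. Adjusted over all 24016 probe sets the p-values were 0.834, 1.00 and 0.932, and that of the F test was 1.00, so none passed. The study's own list from these cows gives NCOR1 as lower in P4T and E2P4T, without naming a probe set. The lower values of the fifth probe set are therefore not independent evidence. The P4 main effect, which sets P4T and E2P4T together against E2T and CO, was -1.34 ± 0.44 (SE, adjusted p = 1.00 in limma), and the interaction of E2 and P4 was 0.69 ± 0.89 (adjusted p = 0.999). Without the 2 arrays the differences for E2T, P4T and E2P4T were -0.84, -1.73 and -1.99 (adjusted p = 0.627, 0.549 and 0.462).

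These values have to be read against the other probe sets of similarly low signal. In the fit with no filter, 2.44% of all probe sets were lower at an unadjusted p under 0.05 in P4T than in CO, 3.11% in E2P4T, and 1.05% by the P4 main effect. Among the 5284 probe sets below the filter the median difference was -0.48 for E2T, -0.35 for P4T and -0.30 for E2P4T. Of these probe sets, 4.37% were lower at that p in P4T, 4.24% in E2P4T and 2.33% by the P4 main effect. The array median was also lower in the treated groups than in CO, with medians over arrays of 187 in E2T, 198 in P4T, 214 in E2P4T and 227 in CO. Over the 26 arrays without the 2 that stand apart, the log2 signal of the fifth NCOR1 probe set had a Pearson r of 0.58 with the log2 array median, against a median r of 0.19 over tested probe sets. Over all 28 arrays its r was 0.34, against a median of 0.30. The part of this relation in the difference was not tested. With each array centred on its median the differences were -0.57, -1.57 and -1.78, and with quantile normalization they were -0.38, -1.42 and -1.59. With 50 added to the signal before taking log2, they were -0.25, -0.59 and -0.62.

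The fourth NCOR1 probe set, also below the filter (highest signal 210.7), had higher means in the treated groups. Its lowest, median and highest log2 signals were 2.93, 5.93 and 7.23 in E2T, 2.46, 4.88 and 6.63 in P4T, and 3.41, 6.63 and 7.72 in E2P4T, against 2.91, 4.29 and 5.59 in CO. Of the E2P4T arrays, 4 of 7 were above the highest CO array and the other 3 inside the CO range, and the difference was 1.53 ± 0.74 (SE, adjusted p = 0.932 in limma), with an unadjusted p under 0.05. By comparison, 1.86% of all probe sets were higher in E2P4T at an unadjusted p under 0.05. Without the 2 arrays its unadjusted p was above 0.05 (adjusted p = 0.546 in limma). The differences for E2T and P4T were 0.83 and 0.51 (adjusted p = 0.860 and 1.00 in limma). The third NCOR1 probe set (highest signal 317) averaged 6.54 ± 0.96 in E2T, 6.05 ± 1.06 in P4T, 6.48 ± 1.22 in E2P4T and 6.13 ± 1.14 in CO (SD, n = 7 each), differences smaller than the SD within any group. The deposited table holds no detection calls, so whether these 3 probe sets were above background is not known from it.

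**Figure D2:**
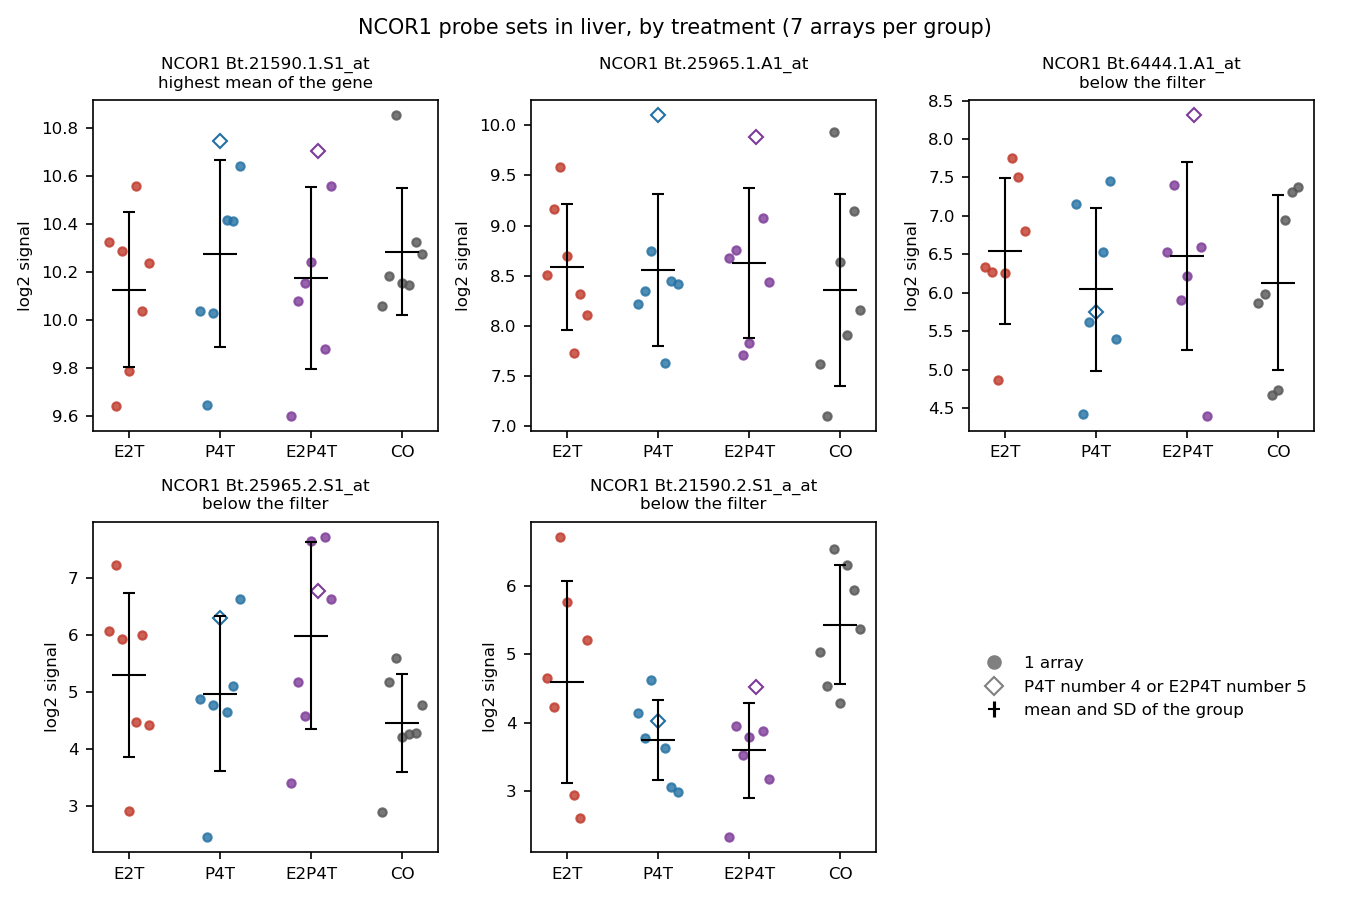
Log2 signals of the 5 NCOR1 probe sets (vertical axes) in E2T, P4T, E2P4T and CO, with 1 point per array, open diamonds for P4T number 4 and E2P4T number 5, and bars for the group mean and SD (n = 7). In the last panel, the fifth probe set, the 7 arrays of P4T (2.98 to 4.63) and of E2P4T (2.32 to 4.52) lie below the CO mean of 5.43, while the arrays of E2T spread over 2.61 to 6.72.

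Across the 7 tested probe sets no comparison passed a threshold. The 21 differences from CO lay between -0.16 and 0.31, 13 above 0 and 8 below. With limma and an adjusted p under 0.05, 0 members were called in the F test, the 3 comparisons with CO, the 3 comparisons between treatments, the main effects of E2 and P4 or their interaction, and the share called among all 18732 probe sets was 0% in each of these. At an unadjusted p under 0.05 the count of members was also 0 for each comparison with CO. Among all tested probe sets the higher ones made up 1.46% for E2T, 0.945% for P4T and 2.18% for E2P4T, and the lower ones 3.96%, 1.83% and 2.72%. The thresholds of the study's methods limit the unadjusted F test, the unadjusted contrast and the fold change. By these, 0 of the 7 tested members were called, against 0.294% of probe sets for E2T, 0.155% for P4T and 0.176% for E2P4T. A count of 0 among 7 probe sets is near shares of this size and does not set the members apart from other genes. The 3 NCOR1 probe sets below the filter were not part of this count. The study filtered by detection call instead and fitted cow and period in a mixed model, and it lists NCOR1 as lower in P4T and E2P4T. Which of these steps bears on the call was not tested. Without moderated variances, the counts at an adjusted p under 0.05 were also 0.

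The precision of these comparisons is set by 7 arrays per group. At the probe sets of highest mean, 2 SE either side of the E2P4T difference reached from -0.28 to 0.46 for NCOA1, from -0.49 to 0.32 for CREBBP and from -0.51 to 0.29 for NCOR1. For E2T the same limits were -0.39 to 0.34 for NCOA1, -0.40 to 0.42 for CREBBP and -0.56 to 0.24 for NCOR1, and for P4T they were -0.23 to 0.50, -0.40 to 0.41 and -0.41 to 0.39. Changes in log2 signal of a size within those limits remain possible at these probe sets, but the limits are not a detection threshold. The fit behind them left out cow and period, which the labels do not give. The comparisons between treatments gave similar values: at the NCOA1 probe set of highest mean the difference was -0.16 for E2T against P4T, 0.12 for E2P4T against E2T and -0.04 for E2P4T against P4T. For CREBBP these were 0.01, -0.10 and -0.09, and for the first NCOR1 probe set -0.15, 0.05 and -0.10. No tested member had an unadjusted p under 0.05 in any of the 9 contrasts.

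**Figure D3:**
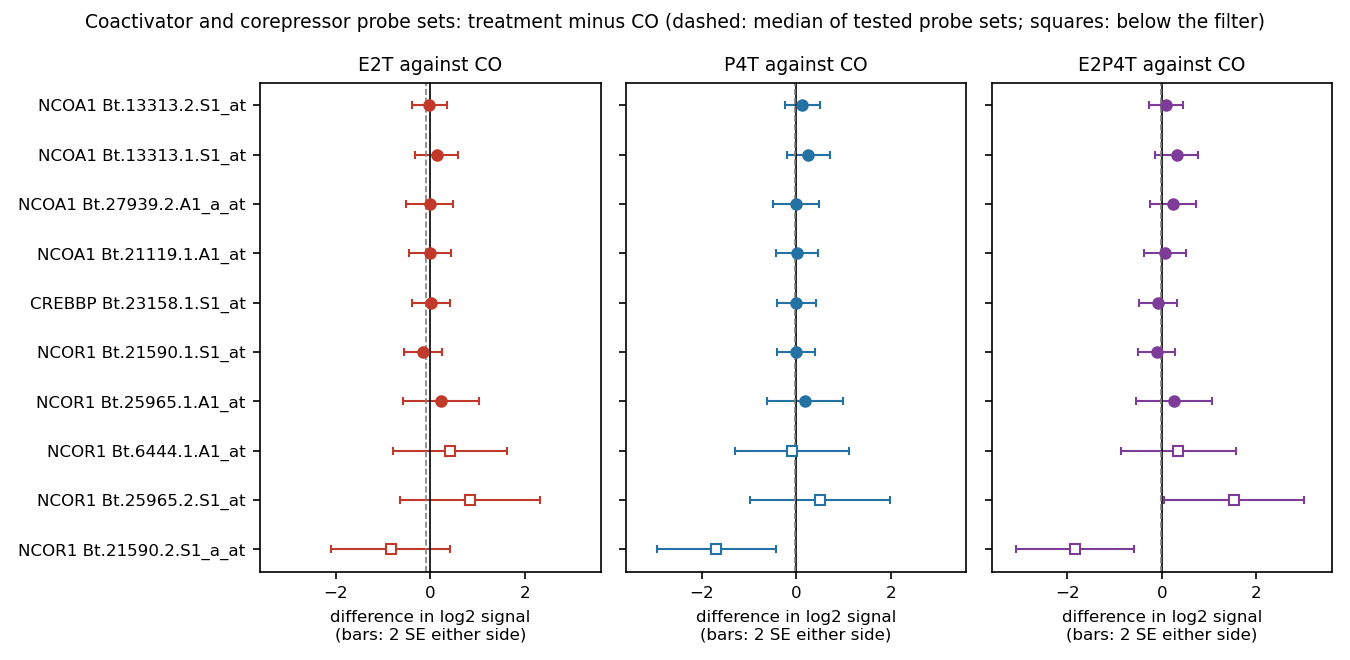
Differences in log2 signal from CO for the 10 probe sets (rows) in E2T, P4T and E2P4T (panels); points are limma estimates, bars reach 2 SE either side, open squares mark the 3 NCOR1 probe sets below the filter, and the dashed line is the median of all tested probe sets. The 7 tested probe sets lie between -0.16 and 0.31, and the dimmest probe set of NCOR1, the fifth, lies at -0.84, -1.68 and -1.84.

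The direction of such small differences depended on how arrays were scaled. As deposited, the median over all tested probe sets was -0.10 for E2T, -0.03 for P4T and -0.02 for E2P4T, and the median of the 7 members was -0.01, 0.02 and 0.09. Centring each array on its median moved the median of all tested probe sets by 0.27 in E2T, 0.12 in P4T and 0.06 in E2P4T. After centring all 7 members were above 0 in E2T and in P4T, against 3 and 5 as deposited, and 5 were in E2P4T under both scales. Quantile normalization moved the median of all tested probe sets by 0.12 in E2T, 0.05 in P4T and 0.04 in E2P4T, and changed the sign of 3 members in E2T and 2 in P4T. Relative to the median of all tested probe sets, the first NCOA1 probe set stood at 0.07 in E2T, 0.16 in P4T and 0.11 in E2P4T. CREBBP stood at 0.11, 0.03 and -0.07, and the first NCOR1 probe set at -0.06, 0.02 and -0.09. None of the 7 tested members reached an unadjusted p under 0.05 in any treatment under either scaling. The fifth NCOR1 probe set, below the filter, did so in P4T and E2P4T under both, without an adjusted p under 0.05.

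Probe sets of the same gene followed one another weakly or not at all across arrays. Over the 26 arrays without P4T number 4 and E2P4T number 5, the 6 pairs of NCOA1 probe sets had Pearson r values of -0.25 to 0.38, and the 10 pairs of NCOR1 probe sets had values of -0.27 to 0.36, with 3 and 5 of the pairs above 0. Between genes, at the probe sets of highest mean, r was -0.08 for NCOA1 with CREBBP, -0.13 for NCOA1 with NCOR1 and 0.31 for CREBBP with NCOR1. Over all 28 arrays 5 of the 6 NCOA1 pairs (-0.19 to 0.39) and 7 of the 10 NCOR1 pairs (-0.16 to 0.36) were above 0, and r between genes was -0.15, 0.01 and 0.14 in the same order. These are descriptions over arrays that share cows and carry no p-value. A gene's probe sets may read different stretches or variants of its transcripts, which the annotation used here does not separate. The spread within groups was widest in CO for 5 of the 7 tested members, whereas CO had the widest spread for 28.8% of all tested probe sets and E2P4T for 37.6%. The median SD of the members was 0.32 in E2T, 0.36 in P4T, 0.36 in E2P4T and 0.48 in CO, and that of all tested probe sets was 0.53, 0.66, 0.75 and 0.68.

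Among 8175 other genes with a tested probe set, those whose signal most resembled a member over the same 26 arrays were named by the highest Pearson r. For the first NCOA1 probe set they were TMA7 (r = 0.91, Spearman rho = 0.87) and TRIB2 (r = 0.91, rho = 0.88). For CREBBP they were WDR26 (r = 0.86, rho = 0.67) and RANBP9 (r = 0.84, rho = 0.81), and for the first NCOR1 probe set they were FXR2 (r = 0.78, rho = 0.71) and PATL1 (r = 0.73, rho = 0.68). With all 28 arrays r was 0.92 for TMA7, 0.85 for TRIB2, 0.86 for WDR26, 0.72 for RANBP9, 0.60 for FXR2 and 0.78 for PATL1.

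The same pattern of small differences held for most other genes of the coregulator machinery. Of 95 further genes in 4 lists (coactivators and their enzymes, corepressors and deacetylases, Mediator subunits, SWI/SNF chromatin remodelling subunits), 64 had a probe set with their symbol alone and 63 were tested at the probe set of highest mean. None was called at an adjusted p under 0.05 in limma in E2T, P4T or E2P4T. At an unadjusted p under 0.05, 2 were higher and 3 lower in E2T, 0 higher and 1 lower in P4T, and 4 higher and 1 lower in E2P4T. As shares these were 3.17% and 4.76%, 0% and 1.59%, and 6.35% and 1.59%, beside the shares of all tested probe sets given above. Without the 2 arrays the counts were 5 and 4 in E2T, 2 and 4 in P4T, and 5 and 1 in E2P4T. In that fit the higher ones among all tested probe sets made up 3.03% for E2T, 2.39% for P4T and 2.99% for E2P4T, and the lower ones 7.17%, 5.81% and 6.51%.

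Among the corepressors, CORO2A, a reported component of the NCOR1 complex, had the lowest p-value in E2T and in P4T. Its probe set of highest mean ranged over 5.13 to 7.30 in E2T, 4.49 to 8.37 in P4T and 6.31 to 7.59 in E2P4T, against 6.55 to 8.93 in CO. All 7 arrays of E2T, 6 of 7 of P4T and all 7 of E2P4T were below the CO mean of 7.68, with ranges that overlapped. The differences were -1.84 ± 0.51 (SE, adjusted p = 0.874 in limma) in E2T, -1.15 in P4T (adjusted p = 1.00) and -0.85 in E2P4T (adjusted p = 0.933). CORO2A met the unadjusted thresholds of the study's methods in E2T and P4T, the 1 listed coregulator that did in each. The study's own lists from these cows also name CORO2A, NCOR1 and MED13L. They give CORO2A as lower in E2T, P4T and E2P4T, NCOR1 as lower in P4T and E2P4T, and MED13L as lower in E2T and E2P4T. The lower signal of CORO2A was known before its list was drawn up, so it is not independent evidence. The other 2 probe sets of CORO2A, both below the filter, gave -0.15, -0.85 and -0.19, and 0.30, 0.39 and -0.58, none with a p under 0.05.

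The core partners of NCOR1 were chosen here for their known role, after their values had been seen. HDAC3, its deacetylase, averaged 10.72 ± 0.19 in E2T, 10.77 ± 0.50 in P4T and 10.71 ± 0.44 in E2P4T, against 10.63 ± 0.35 in CO (SD, n = 7 each). TBL1X, a WD40 protein of the complex, gave differences of -0.15, 0.01 and -0.13 at its probe set of highest mean, 0.26, 0.19 and 0.08 at its second and -0.43, 0.36 and 0.77 at the one of lowest mean. GPS2, another subunit, gave -0.11, 0.04 and -0.16, and -0.19, 0.13 and -0.34 at its second probe set. TBL1XR1, the paralog of TBL1X, was above the CO mean of 12.70 in all 7 arrays of E2T and of E2P4T and in 5 of 7 of P4T. Its differences were 0.41 ± 0.18 in E2T (SE, adjusted p = 0.874 in limma), 0.28 in P4T (adjusted p = 1.00) and 0.37 in E2P4T (adjusted p = 0.933), while its second probe set gave 0.03, 0.12 and 0.13. HDAC5, a class IIa deacetylase, averaged 10.08 in E2T, 10.07 in P4T and 9.92 in E2P4T, against 10.38 in CO, with a difference of -0.46 ± 0.19 in E2P4T (SE, adjusted p = 0.933 in limma). Its second probe set gave 0.69, 0.58 and 0.08. NR0B1 (DAX1), a receptor-like corepressor, was the third corepressor gene lower or higher in E2T at an unadjusted p under 0.05. Its difference was -1.70 ± 0.80 (SE, adjusted p = 0.874 in limma), with CO signals that had an SD of 1.89. NR0B1 passed the filter by its highest signal, 8.61 in E2P4T, against at most 8.32 in CO. Its E2P4T difference was -0.46 with all arrays and -0.93 without the 2 arrays that stand apart. The other probe set of NR0B1 is not described here.

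On the coactivator side, 18 of 28 listed genes were tested, of which 11 of 18 were above 0 in E2T, 11 in P4T and 13 in E2P4T, with list medians of 0.10, 0.04 and 0.12. SRA1, an RNA coactivator and protein, was below the CO mean of 11.59 in 6 of 7 arrays of E2T, all 7 of P4T and 5 of 7 of E2P4T, with differences of -0.59 ± 0.26 (SE, adjusted p = 0.874 in limma), -0.44 and -0.29. The acetyltransferases KAT2B and KAT5 gave 0.11, 0.05 and 0.30, and -0.23, -0.22 and -0.02. PPARGC1A, the inducible coactivator of gluconeogenesis and mitochondrial genes, gave 0.09, 0.04 and 0.43, the last with an SD of 1.16 in E2P4T and a value of 0.02 without the 2 arrays. For Mediator, 25 of 30 listed subunits were tested, with medians of 0.14, 0.00 and -0.02. MED30 averaged 7.80 ± 0.23 in E2T, 7.52 ± 0.66 in P4T and 7.83 ± 0.57 in E2P4T, against 6.80 ± 1.56 in CO, with differences of 1.00, 0.72 and 1.02 (adjusted p = 0.874, 1.00 and 0.933 in limma). MED21, the other subunit higher in E2P4T at an unadjusted p under 0.05, gave 0.55 there. MED13L, a Mediator kinase module subunit, gave 0.32, -0.13 and 0.47 at its probe set of highest mean. Its other 2 probe sets ran mostly the other way, at -0.45, -0.36 and -0.37 for the tested one and at -1.67, 0.23 and -0.61 for the one below the filter, whose E2T difference had an unadjusted p under 0.05 (adjusted p = 0.810 in limma). For SWI/SNF, 7 of 14 listed subunits were tested, with medians of 0.32, 0.21 and 0.19. SMARCA2, one of its ATPases, gave 0.08, 0.33 and 0.12, and SMARCE1, a subunit with an unadjusted p under 0.05 in E2P4T, gave 0.40 there (adjusted p = 0.933 in limma). MED13L, MED21, SMARCE1, NR0B1, KAT2B, KAT5, PPARGC1A and the receptors below were chosen after their values were seen.

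The nuclear receptors that use these coregulators were tested for 19 of 29 listed genes, with medians of -0.19 for E2T, -0.07 for P4T and -0.19 for E2P4T. With all arrays, 0 of 19 had an unadjusted p under 0.05. Without the 2 arrays, 0 were higher and 1 lower in E2T, 0 and 2 in P4T, and 1 and 2 in E2P4T, beside the shares given above. The study lists PPARD as lower in E2T. At its probe set of highest mean, PPARD gave -0.50, -0.46 and -0.36 with all arrays. Without the 2 arrays it gave -0.50, -0.66 and -0.60, the last 2 with an unadjusted p under 0.05. NR3C1 was the gene higher in E2P4T in that fit, at 0.44. RXRA, the shared partner of many receptors, averaged 13.00 ± 0.22 in E2T, 13.07 ± 0.15 in P4T and 12.61 ± 0.66 in E2P4T, against 12.98 ± 0.33 in CO (SD, n = 7 each). Its lowest E2P4T signal was 11.15, and its E2P4T difference was -0.37 with all arrays and -0.12 without the 2 arrays. ESR1, the estrogen receptor alpha gene, averaged 3.67 ± 1.05 in E2T, 5.01 ± 1.58 in P4T and 5.64 ± 1.77 in E2P4T. In CO it averaged 4.75 ± 1.42, and the groups overlapped. Its highest signal, the one by which it passed the filter, was 8.59 in E2P4T, against at most 6.95 in the other groups. Without the 2 arrays its E2P4T difference was 0.39, against 0.88 with all arrays. The study describes its transcripts as almost undetectable. PGR, the progesterone receptor gene, averaged 6.16 ± 1.16 in E2T, 6.28 ± 1.52 in P4T and 6.35 ± 1.23 in E2P4T, against 7.19 ± 0.67 in CO. For PGR, 6 of 7 arrays of each treatment were below the CO mean, and its differences were -1.02, -0.90 and -0.83 (adjusted p = 0.874, 1.00 and 0.938 in limma). Without the 2 arrays they were -1.02, -1.35 and -1.24, each with an unadjusted p under 0.05.

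**Figure D4:**
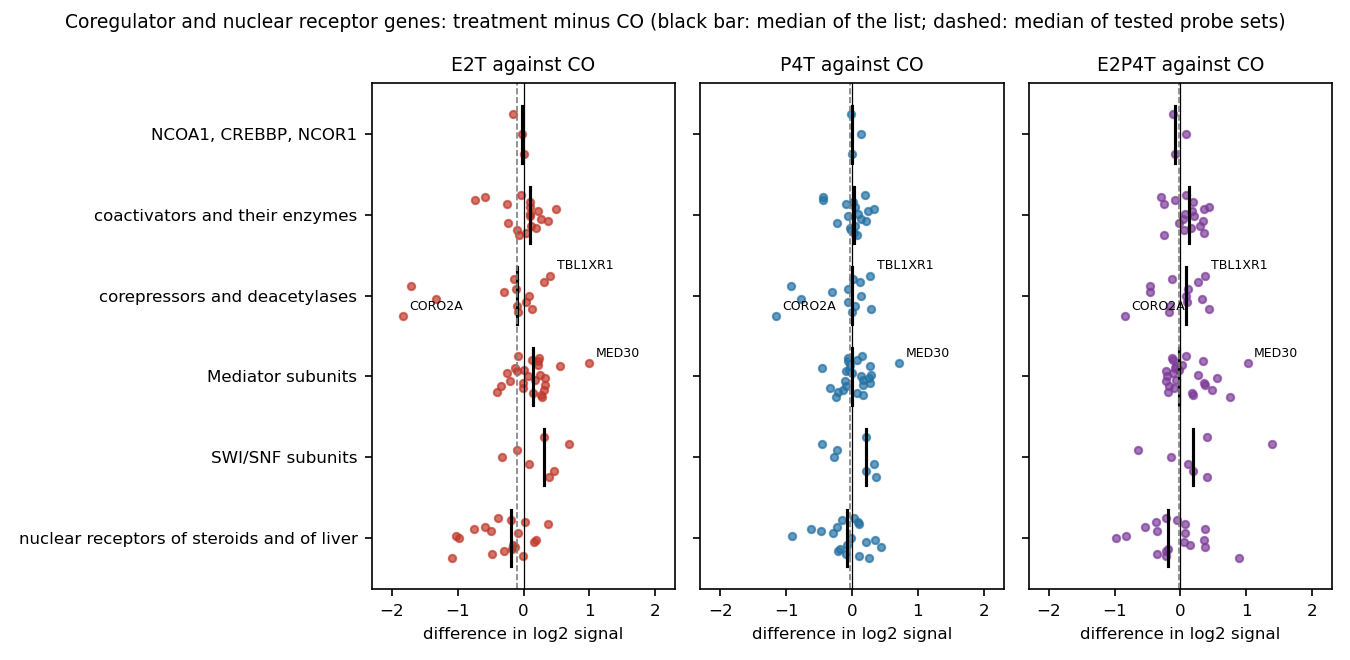
Differences in log2 signal from CO (horizontal axis) for NCOA1, CREBBP and NCOR1 at their probe sets of highest mean and for the genes of 5 lists, in E2T, P4T and E2P4T (panels); each point is 1 gene, black bars are list medians and the dashed line is the median of all tested probe sets. The 3 members lie near 0, while CORO2A lies at -1.84 in E2T and MED30 at 1.00.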

How the data were processed

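Poly(A) RNA of 28 liver biopsies was hybridized to the Affymetrix Bovine GeneChip. The authors deposited 1 signal intensity per probe set and array on a linear scale, made with MAS 5.0 per the submitters' processing notes and scaled to a common trimmed mean (1000.2 to 1000.4 here); no build, detection calls or raw images were used here. Array medians ran from 178.25 to 512.75 and no signal was at or below 0. The number of arrays limits the precision.

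Signals were log2 transformed. The 78% of probe sets other than controls with the highest maximum signal were tested (18732 of 24016) with limma 3.58.1 in R 4.3.3 (lmFit, eBayes with trend) in 1 fit over 4 groups, with Benjamini-Hochberg adjustment and a threshold of 0.05. The fit was tested on simulated data. Symbols came from the array annotation (13292 probe sets with 1 symbol, 86 with several left unnamed). The mixed model with cow and period was not run, since the labels do not give them. Members and lists were chosen with earlier results of these data known; other genes named are the 2 with the lowest p per treatment over the lists, and those passing the study's thresholds, unless stated. Alternatives were no filter, the upper 50% by mean, quantile normalization, median centring, 50 added to the signal, array weights, array number as a block, ordinary variances, only the groups compared, each array left out, the 2 arrays that stand apart left out, E2P4T number 5 left out with centring, and the mean over a gene's probe sets. The direction was always treatment minus CO unless stated.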

Additional observations from a re-analysis of the deposited data

Results flagged for a closer look

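Within the groups, 3 arrays lay far from the other 6 of their group at a member probe set, of 40 groups of 7 arrays looked at, and chance gives about 1 in 20. At the third NCOA1 probe set the array P4T number 4 was the highest of its group at 9.69 (the next was 8.87), and E2P4T number 5 was the highest of its group at 9.88 (the next was 9.18). Both are the arrays that stand apart in the hybridization spikes. At the first NCOR1 probe set the array CO number 3 was the highest of its group at 10.85 (the next was 10.32), and its spike mean of 16.45 was the highest among the other 26 arrays.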

How the results depend on the processing

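The counts at an adjusted p under 0.05 were 0 for the F test and the 9 contrasts under all alternatives run, except E2T against P4T with array weights, where it was 1. The 63 probe sets that met the study criteria (the unadjusted thresholds of the study's methods) in any treatment became 103 with no filter, 22 in the upper part by mean signal, 355 with array weights (weights of 0.10 to 2.13), 195 without P4T number 4 and E2P4T number 5, and 116 without E2P4T number 5 and with median centring. Leaving out 1 array at a time gave 36 (without CO number 3) to 113 (without E2P4T number 5), with 108 without CO number 6, 102 without P4T number 4 and 41 without E2T number 2. The cause of these shifts was not tested. With the array number of the labels as a replicate block the count was 67 and every adjusted count stayed at 0. Same-numbered arrays of different groups deviated together with r of -0.21 to 0.32 (14 of 42 pairs above 0.1), so the numbers were not taken to pair samples.

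The 30 member differences from CO (10 probe sets in 3 treatments) were recomputed 1170 times. Their sign changed in 31 values under settings other than a left-out array and in 58 values with 1 array left out, and 14 of the 30 never changed sign. The lowest adjusted p was 0.307. The P4T and E2P4T differences of the fifth NCOR1 probe set, the dimmest, had an unadjusted p under 0.05 in each of 38 alternatives, and were -0.59 and -0.62 when 50 was added to the signal. Of the tested members, the second NCOA1 probe set in E2P4T alone had an unadjusted p under 0.05, in 1 of 39 alternatives (0.57 without E2P4T number 5 and with median centring), and its lowest adjusted p over these alternatives was 0.401 in limma. The fourth NCOR1 probe set in E2P4T had an unadjusted p under 0.05 in 19 of 38 alternatives. Both NCOR1 probe sets had low signals, at most 105.3 for the fifth and 210.7 for the fourth. The part of low signal in their spread was not tested.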
